A study of Mus musculus with 4 samples.

Results

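The homeostatic microglia genes are a set of 9 genes, P2ry12, P2ry13, Cx3cr1, Tmem119, Csf1r, Siglech, Sall1, Gpr34 and Selplg, that were taken by symbol from the 32285 genes of the count tables. All 9 were present in the tables. Their transcripts were counted in single hippocampal nuclei from wild-type (WT) mice and from knock-in (KI) mice that carry 1 copy of the R87C allele of Cyfip2 (Cyfip2+/R87C). Humans with this variant have an early epileptic encephalopathy. Both groups were on a C57BL/6N background and were examined at postnatal week 28, and the labels name no drug or other agent. Each group had 2 mice, and each mouse gave 1 library from both hippocampi. The change is present in every cell of the KI mice, and not in microglia alone. The labels of KI replicate 2 write the allele as R88C in the treatment field and as R87C in the protocol.

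In the healthy brain, microglia survey the tissue with motile processes and carry a set of surface receptors that read signals from neurons and from damaged cells. Transcripts of these receptors, together with those of the transcription factors that hold microglial identity in place, are called homeostatic. In disease models, injury and seizures, microglia commonly lower such transcripts while they raise genes of lipid handling, lysosomes or inflammation.

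Of 55640 barcodes, 55367 had at least 500 genes and were used as nuclei, 12565 to 16000 per library with 72951460 to 80875469 UMIs (unique molecular identifiers, each counted as 1 transcript). Of all barcodes, 313 occurred in more than 1 library. Cyfip2 itself had 181 and 179 CPM (counts per 1000000 UMIs) in WT, and 173 and 170 CPM in KI, and the counts do not tell its alleles apart. Microglia were sought with 4 genes outside the set, Inpp5d, Dock8, Apbb1ip and Ly86, and a nucleus passed the gate when at least 2 of these were detected. The gate held 651 and 534 nuclei in WT, and 633 in each KI library. Many of them carried a second profile, chiefly that of a neuron or an oligodendrocyte. Core microglia were therefore defined as gated nuclei with at least 0.7 of their UMIs assigned to the microglial profile, a profile built without the 9 genes. This left 211 and 192 nuclei as WT core microglia, and 241 and 89 as KI core microglia. Their sums were 292665 and 311908 UMIs in WT and 376181 and 113009 UMIs in KI, so that KI replicate 2 gave the least precise values. Names of cell classes stand for nuclei that resemble the class by its markers.

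The 4 gate genes together had 4292 and 4347 CPM in WT core microglia and 4362 and 4062 CPM in KI core microglia. The nuclei were selected on these same genes, so their sum is no independent measure of microglial content. Single gate genes varied more. Dock8, a regulator of immune cell movement, had 871 and 894 CPM in WT, compared with 468 and 681 CPM in KI, whereas Inpp5d, an inositol phosphatase of blood-derived and microglial cells, had WT levels of 1630 and 1680 CPM and KI levels of 2222 and 1540 CPM. Summed markers of border macrophages, a related cell type around vessels and meninges, stood at 0 to 29.2 CPM in core microglia, and Mrc1, Cd163 and the other 6 markers were all at 0 in KI replicate 2. Lymphocyte markers summed to 79.6 to 189 CPM. General neuron markers contributed 3344 to 4026 CPM and oligodendrocyte markers 1522 to 1938 CPM to the 4 core sums, and their part in the results was not tested. Apod and Ptgds, a lipid carrier gene and a prostaglandin synthase gene, were higher in both KI libraries of core microglia and highest in KI replicate 1, with Apod at 140 and 131 CPM (WT) against 1348 and 425 CPM (KI).

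Among the nucleotide and lipid receptors, Gpr34 lay lower in both KI libraries, as did the sparse P2ry13 on few UMIs, and P2ry12 did not. P2ry12 (ENSMUSG00000036353) encodes the ADP receptor that steers microglial processes, and lies on chromosome 3 at 59216272 to 59262871, minus strand, in GRCm38. It had 598 and 635 CPM in the WT core microglia and 758 and 726 CPM in KI. Both KI libraries thus stood above both WT libraries, with a log2 fold change (KI over WT) of 0.27 ± 0.21 (SE), which did not pass edgeR's quasi-likelihood test (Benjamini-Hochberg adjusted p = 0.684). Gpr34 (ENSMUSG00000040229) encodes a receptor for lysophosphatidylserine and lies on chromosome X at 13632089 to 13640858, plus strand, inside the gene Cask on the opposite strand. Its level was 379 and 372 CPM in WT, 79.7 CPM in KI replicate 1 and 283 CPM in KI replicate 2. The groups did not overlap, and KI replicate 1 lay far below the other KI library. Cask had 383 and 308 CPM (WT) against 324 and 407 CPM (KI), and without a stated strand setting its reads and those of Gpr34 cannot be told apart with certainty. The log2 fold change was -1.37 ± 0.38 (SE; edgeR adjusted p = 0.162). P2ry13 (ENSMUSG00000036362; chromosome 3, 59207892 to 59210882, minus strand), the gene of a second ADP receptor, was sparse. It had 6 and 17 UMIs in the WT core microglia and 5 and 2 UMIs in KI, or 20.5 and 54.5 CPM against 13.3 and 17.7 CPM. It did not pass the filter on low counts, and received no test there.

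Cx3cr1 (ENSMUSG00000052336; chromosome 9, 119901616 to 120069879, minus strand) encodes the receptor for the neuronal chemokine fractalkine. Its level was 612 and 676 CPM in WT, 295 CPM in KI replicate 1 and 549 CPM in KI replicate 2. The KI libraries were both below the WT libraries, by a log2 fold change of -0.71 ± 0.27 (SE) and an adjusted p of 0.340 in the same edgeR test. Csf1r (ENSMUSG00000024621; chromosome 18, 61100598 to 61132149, plus strand) encodes the receptor for CSF1 and IL-34 on which microglial survival depends. Its values were 540 and 619 CPM in WT, compared with 614 and 664 CPM in KI, which overlapped between the groups. Its log2 fold change was 0.13 ± 0.22 (SE).

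The other surface genes divided in the same way. Siglech (ENSMUSG00000051504; chromosome 7, 55768178 to 55778925, plus strand) encodes a sialic acid-binding lectin of microglia and had 615 and 580 CPM in WT, 152 CPM in KI replicate 1 and 487 CPM in KI replicate 2. Its log2 fold change was -1.12 ± 0.35 (SE; edgeR adjusted p = 0.248). Selplg (ENSMUSG00000048163; chromosome 5, 113818536 to 113832644, minus strand), the gene of P-selectin glycoprotein ligand 1, had 550 and 686 CPM in WT, 77.1 CPM in KI replicate 1 and 425 CPM in KI replicate 2. This was the largest difference among the 8 genes tested. The log2 fold change was -1.65 ± 0.45 (SE; edgeR adjusted p = 0.158). On the same chromosome, Tmem119 (ENSMUSG00000054675; chromosome 5, 113793729 to 113800516, minus strand), a widely used microglial marker that encodes a membrane protein, had WT levels of 99.1 and 109 CPM and KI levels of 93 and 106 CPM, so the groups overlapped. The transcription factor gene Sall1 (ENSMUSG00000031665; chromosome 8, 89027235 to 89044162, minus strand), which maintains microglial identity, had 195 and 224 CPM in WT, 120 CPM in KI replicate 1 and 204 CPM in KI replicate 2. Its groups overlapped as well, with a log2 fold change of -0.52 ± 0.30 (SE).

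**Figure D1:**
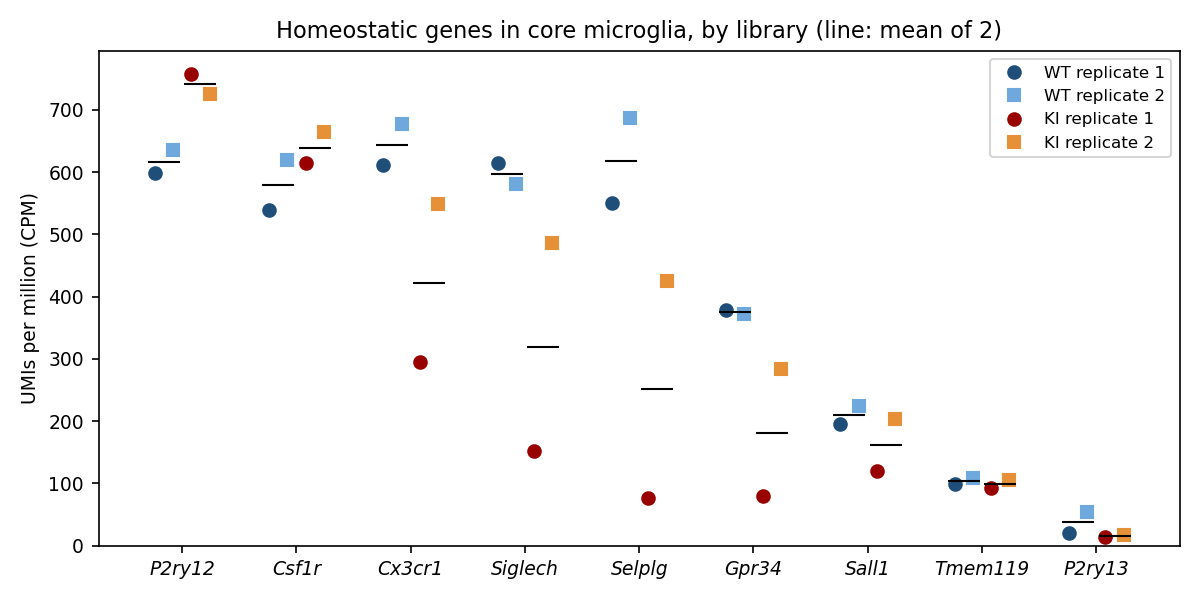
Level of each homeostatic gene in core microglia, in CPM (vertical axis starting at 0), for the 4 libraries, with a line at the mean of the 2 libraries of each group. Selplg, Gpr34, Siglech and Cx3cr1 are lowest in KI replicate 1 and intermediate in KI replicate 2, whereas P2ry12 is highest in the KI libraries.

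With an adjusted p below 0.05 as threshold, 0 of the 8 genes tested in core microglia were called, while 4 of all 6651 genes tested (0.0601%) were called. At an unadjusted p below 0.05, 4 of the 8 were lower in KI, namely Cx3cr1, Siglech, Gpr34 and Selplg, and 0 were higher. Over all genes tested, 5.28% were lower in KI at that level. In the same 4 genes, both KI libraries lay below both WT libraries, which held for 1316 of the 6651 genes (19.8%). The median log2 fold change of the 8 genes was -0.61, beside -0.01 for all genes tested. DESeq2 also called 0 of the 8 in core microglia, beside 1 of all 6651 genes (0.015%). Other choices made calls among these 4 genes without turning their direction. Siglech, Gpr34 and Selplg passed without a filter on low counts, where 0.472% of all genes passed, and in nuclei with at least 3 gate genes, where 0.868% did. After thinning every nucleus to 1000 UMIs Gpr34 and Selplg passed, with 0.55% of all genes. With the replicate number as a block, Selplg alone of the 8 passed, at an adjusted p of 0.00891 by edgeR, with 0.21% of all genes. Selplg also passed at a microglial share of at least 0.5 or 0.9 (0.754% and 0.315% of all genes) and without WT replicate 1 (0.142%), where the spread came from the KI libraries alone and the lone WT library was assumed to vary like them.

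The size of these differences depended on 1 library. Leaving out KI replicate 2, so that KI replicate 1 was set against both WT libraries, gave log2 fold changes of -2.97 for Selplg, -2.21 for Gpr34, -1.95 for Siglech and -1.10 for Cx3cr1. All 4 then passed in edgeR, at adjusted p from 1.42e-21 to 9.40e-05, with the lone KI library assumed to vary like the WT libraries, and 333 of all 7630 genes (4.36%) passed in the same fit. Leaving out KI replicate 1 instead gave -0.55 for Selplg, -0.41 for Gpr34, -0.30 for Siglech and -0.24 for Cx3cr1, and 0 of these passed, at adjusted p from 0.602 to 0.912, beside 0.146% of all genes. Relative to the WT mean, the level of Selplg was 87.5% lower in KI replicate 1 and 31.3% lower in KI replicate 2. For Gpr34 the corresponding values were 78.8% and 24.6%, for Siglech 74.6% and 18.6%, and for Cx3cr1 54.2% and 14.8%.

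**Figure D2:**
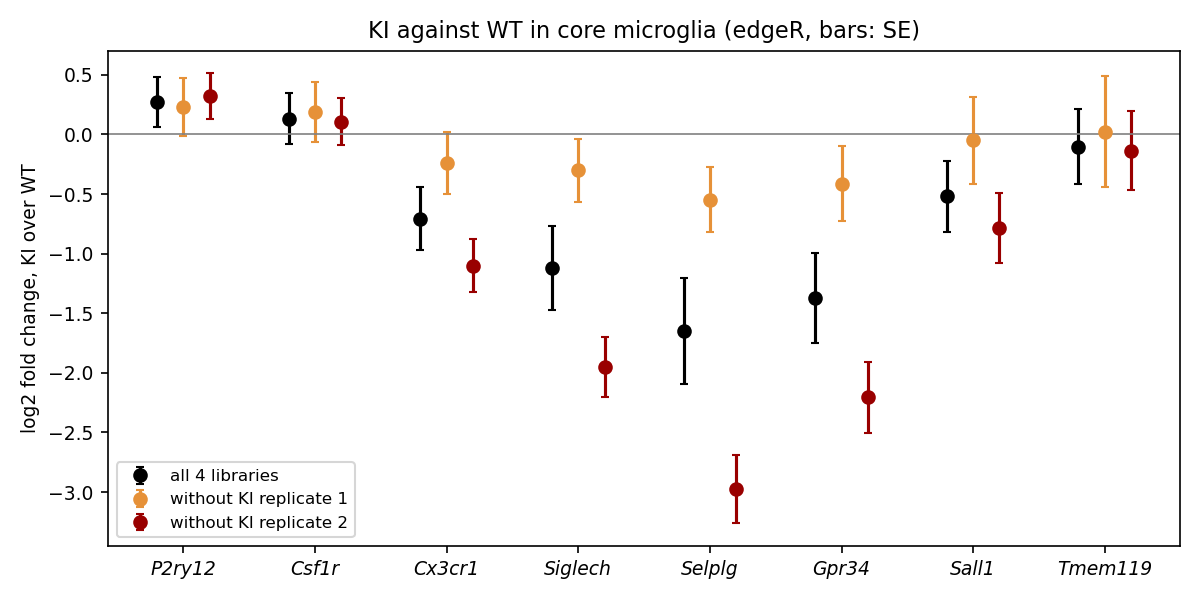
Log2 fold change (KI over WT) in core microglia by edgeR, with standard errors as bars, for all 4 libraries and without each KI library in turn. Without KI replicate 1 the values of Selplg, Gpr34, Siglech and Cx3cr1 move to between -0.55 and -0.24, and without KI replicate 2 to between -2.97 and -1.10.

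The whole gate gave a larger number of UMIs but a mixed material, in which general neuron markers were highest in KI replicate 2, at 9346 CPM beside 6504 to 7616 CPM in the other libraries, and excitatory neuron markers were highest in WT replicate 1. Gate genes stood at 1203 and 1380 CPM in the gated WT nuclei, at 1599 CPM in KI replicate 1 and at 636 CPM in KI replicate 2, and core microglia made up 32.4% and 36.0% of the gate in WT and 38.1% and 14.1% in KI. All 9 genes had a log2 fold change below 0 there, with a median of -0.69, beside 0.00178 for all genes tested. Those of P2ry12 (-0.04 ± 0.28, SE) and Csf1r (-0.07 ± 0.33, SE) changed sign when KI replicate 2 or WT replicate 2 was left out. Of the 9, 0 were called among 14220 genes tested (0%), and at an unadjusted p below 0.05 the genes Cx3cr1, Siglech, Sall1, Gpr34 and Selplg were lower in KI, beside 4.19% of all genes. By DESeq2, 64 genes (0.45%) passed in the gate, among them Gpr34 and Selplg.

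In a mixed material, UMIs of each gene were also divided by the summed UMIs of the 4 gate genes in the same nuclei, a measure chosen after the data had been seen. The nuclei were selected on the same gate genes, so these ratios depend in part on that selection and are a description only. Gated nuclei held 4045 and 3609 gate gene UMIs in WT and 4592 and 4001 in KI, of which Inpp5d made up 1449 and 1320 in WT, 2399 in KI replicate 1 and 1517 in KI replicate 2. Selplg had 12.8 and 14.9 UMIs per 100 gate gene UMIs in WT, 2.07 in KI replicate 1 and 11.0 in KI replicate 2. Gpr34 had 8.65 and 9.64 in WT, 2.11 in KI replicate 1 and 8.25 in KI replicate 2. Both KI libraries were below both WT libraries for these genes, but KI replicate 2 was close to WT replicate 1. Siglech had 12.6 and 13.4 in WT, 4.09 in KI replicate 1 and 13.3 in KI replicate 2, and Cx3cr1 had 14.6 and 15.6 in WT, 8.14 in KI replicate 1 and 14.6 in KI replicate 2. In the gate, on this scale, KI replicate 2 did not stand below the WT libraries in Siglech, and it was level with WT replicate 1 in Cx3cr1. P2ry12 had 18.0 and 19.3 in WT and 18.1 and 24.8 in KI. Per 100 UMIs of the other 3 gate genes, without Inpp5d, Selplg had 19.95 and 23.5 in WT, 4.33 in KI replicate 1 and 17.8 in KI replicate 2. Cx3cr1 had 22.8 and 24.6 in WT, 17.1 in KI replicate 1 and 23.6 in KI replicate 2, and P2ry12 had 28.005 and 30.5 in WT and 38.0 and 40.0 in KI. The difference of KI replicate 1 in Cx3cr1 was thus smaller without Inpp5d, and P2ry12 was higher in both KI libraries on that scale. In core microglia alone, KI replicate 2 was below both WT libraries by the same measure, with 12.0 for Siglech beside 14.3 and 13.3 in WT, and 13.5 for Cx3cr1 beside 14.3 and 15.6 in WT.

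Detection in single nuclei was compared at equal depth, after thinning each core nucleus to 1000 UMIs. This left out 42 and 40 nuclei in WT and 39 and 26 in KI, which were shallower, and kept 169 and 152 WT nuclei, 202 nuclei of KI replicate 1 and 63 of KI replicate 2. Siglech was then detected in 45.6% (exact 95% Clopper-Pearson interval 37.9 to 53.4) and 45.4% (37.3 to 53.7) of the WT nuclei. In KI it was detected in 13.9% (9.41 to 19.4) of the nuclei of replicate 1 and 42.9% (30.5 to 56.0) of those of replicate 2. Selplg was detected in 37.9% and 53.3% of the WT nuclei and in 10.4% and 27.0% of the KI nuclei. For Gpr34 the shares were 29.6% and 32.9% in WT and 7.43% and 22.2% in KI, and for Cx3cr1 43.2% and 46.1% in WT and 24.8% and 39.7% in KI. P2ry12 was detected in 44.4% and 43.4% of the WT nuclei and in 46.5% and 50.8% of the KI nuclei. Intervals cover counting error only. Where the groups did not overlap, an exact two-sided permutation test over libraries gave p = 0.333, the lower limit for groups of 2. The core nuclei without thinning gave Siglech in 53.1% and 53.1% of WT nuclei and in 21.2% and 44.9% of KI nuclei. In the whole gate at 1000 UMIs, which the comparison was planned for, Siglech was detected in 23.7% ± 2.97 (SD, n = 2) of WT and 10.7% ± 2.46 (SD, n = 2) of KI nuclei, and Selplg in 25.0% ± 4.31 and 7.42% ± 1.91. Core microglia made up 14.1% of the gate before thinning in KI replicate 2, against 32.4% to 38.1% in the other libraries. The gate gene Inpp5d was detected in 47.7% and 45.3% of the thinned gated WT nuclei, and in 65.9% and 31.6% of those of KI. The part of this mixture in the gate shares was not tested. P2ry13 was detected in 0 of 63 nuclei of KI replicate 2, for which a floor of 3 counts is a share of 4.76% and the upper limit of the exact interval is 5.69%, so its difference was not resolved at this depth.

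The number of homeostatic genes seen in the same nucleus followed the single genes. At 1000 UMIs, core nuclei of WT replicates 1 and 2 held a mean of 2.66 and 2.99 of the 9 genes, those of KI replicate 1 held 1.65, and those of KI replicate 2 held 2.59. Nuclei with at least 4 of the genes made up 29.0% and 32.2% in WT, 5.45% in KI replicate 1 and 27.0% in KI replicate 2. In KI replicate 1, 106 of 202 nuclei held none of Cx3cr1, Siglech, Gpr34 and Selplg, 4 genes grouped after their values had been seen. In WT this was so in 24 of 169 and 16 of 152 nuclei, and in KI replicate 2 in 11 of 63. Among the nuclei of KI replicate 1 that held none of the 4, 59.4% held P2ry12 or Csf1r, beside 74.0% of its nuclei that held at least 1 of the 4. The corresponding shares were 62.5% and 64.1% in WT replicate 1, 56.3% and 75.7% in WT replicate 2, and 63.6% and 76.9% in KI replicate 2. The other 5 genes were found in 71.0% and 82.2% of WT nuclei and in 73.3% and 76.2% of KI nuclei, when a nucleus with any of them was counted.

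**Figure D3:**
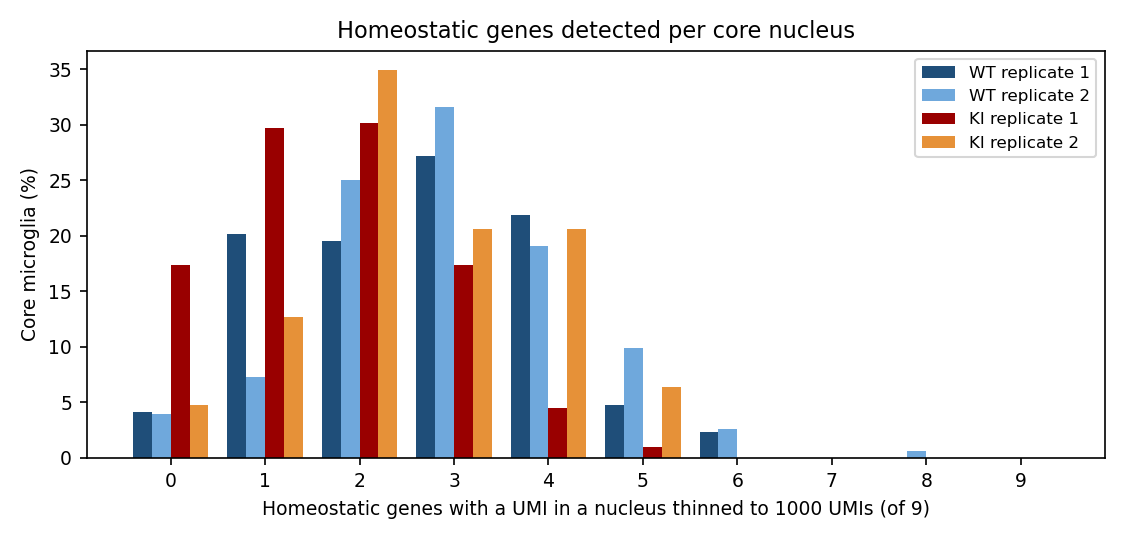
Share of core microglia (percent, vertical axis starting at 0) by the number of homeostatic genes with a UMI in a nucleus thinned to 1000 UMIs, for the 4 libraries. KI replicate 1 is shifted to lower numbers, with 17.3% of its nuclei at 0 genes beside 3.95% to 4.76% in the other libraries.

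Promoter sequences were read for 5 of the 9 genes from RefSeq (GRCm38.p6), as 250 bases before to 50 after the start of transcription. Those of Siglech and Cx3cr1, which were lower in KI replicate 1, and of P2ry12, which was not, are shown 5′ to 3′ on the strand of the gene. Capitals mark AGGAAG, the core of sites bound by the myeloid factor PU.1 and by other ETS factors, searched on both strands. The windows are chr7:55767934-55768233 (plus strand) for Siglech, chr9:120068247-120068546 (minus strand) for Cx3cr1 and chr3:59262936-59263235 (minus strand) for P2ry12.
Siglech: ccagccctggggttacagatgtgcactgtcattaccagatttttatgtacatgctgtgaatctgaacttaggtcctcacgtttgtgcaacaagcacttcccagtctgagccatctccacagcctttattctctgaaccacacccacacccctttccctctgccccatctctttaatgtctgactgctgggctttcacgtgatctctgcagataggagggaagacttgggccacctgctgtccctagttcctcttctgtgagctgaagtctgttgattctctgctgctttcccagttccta
Cx3cr1: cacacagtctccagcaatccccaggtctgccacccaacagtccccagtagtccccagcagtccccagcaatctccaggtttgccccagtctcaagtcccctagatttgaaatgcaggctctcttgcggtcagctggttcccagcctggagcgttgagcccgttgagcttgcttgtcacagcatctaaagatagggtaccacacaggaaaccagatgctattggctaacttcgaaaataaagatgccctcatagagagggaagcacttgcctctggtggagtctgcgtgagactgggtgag
P2ry12: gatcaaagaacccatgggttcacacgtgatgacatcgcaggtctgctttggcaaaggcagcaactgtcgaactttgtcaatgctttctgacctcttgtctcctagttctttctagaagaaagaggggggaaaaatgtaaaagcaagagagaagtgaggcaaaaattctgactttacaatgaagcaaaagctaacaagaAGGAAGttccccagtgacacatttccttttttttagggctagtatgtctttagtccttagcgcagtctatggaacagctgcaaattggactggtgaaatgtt
The motif occurred in the P2ry12 window and not in those of Siglech and Cx3cr1. It also occurred in the window of P2ry13, and in 1 of 3 windows of Sall1. In core microglia of KI replicate 1, P2ry13 (on 5 UMIs) and Sall1 were 64.6% and 42.9% below the WT mean. The motif thus did not divide the genes by their level in that library. Of all 32851 promoter windows of this length, 35.4% held it on either strand.

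The genes were also set against the length of their span in the genome. Selplg, Siglech and Gpr34 span 14.1, 10.7 and 8.77 kb, and P2ry12 and Csf1r span 46.6 and 31.6 kb. Tmem119, Sall1 and P2ry13 span 6.79, 16.9 and 2.99 kb. The part of gene length in the results was not tested. Among genes of core microglia with at least 50 CPM on average, the 883 genes under 20 kb had a median log2 ratio to the WT mean of -0.09 in KI replicate 1 and of 0.08 in KI replicate 2. The 1393 genes over 100 kb had medians of -0.01 and -0.06. Cx3cr1 has an annotated span of 168 kb, which overlaps Wdr48, Gorasp1, Ttc21a, Csrnp1 and Xirp1. Reads in shared stretches cannot be assigned to 1 gene with certainty.

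In neurons, P2ry12 had the highest share of its core level. In excitatory neurons, the largest class with 7422 to 10461 nuclei per library, Siglech had 1.015 to 2.33 CPM, Selplg 1.015 to 3.23 CPM and Csf1r 4.32 to 6.69 CPM. In WT these were 0.317%, 0.519% and 0.846% of the level in core microglia. Selplg and Siglech were lowest in KI replicate 1 here too, at 1.015 CPM each, beside 3.06 and 2.33 CPM in KI replicate 2. P2ry12 had 74.6 and 82.9 CPM in WT excitatory neurons, 12.8% of the core level, and 47.6 and 54.2 CPM in KI. At 1000 UMIs it was detected in 7.81% and 8.64% of WT and 5.21% and 6.10% of KI excitatory neurons, and without thinning in 32.0% and 37.7% of WT and 26.8% of KI excitatory neurons in either library, at median depths of 4840 to 6191 UMIs. In oligodendrocytes, which should lack P2ry12 and had median depths of 1389.5 to 1489 UMIs, it was detected in 1.94% to 3.78% of the thinned nuclei. Siglech was detected in 0.148% to 0.278% of the thinned excitatory neurons. P2ry12 was also found in inhibitory neurons, at 62.1 and 73.2 CPM (WT) against 44.7 and 57.6 CPM (KI). In oligodendrocytes it had 21.9 to 34.2 CPM.

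P2ry12 in excitatory neurons was lower in both KI libraries than in both WT libraries, whereas in core microglia both KI libraries stood above both WT libraries. Its log2 fold change was -0.57 ± 0.10 (SE; edgeR adjusted p = 0.0639) in these neurons and 0.27 ± 0.21 (SE; edgeR adjusted p = 0.684) in core microglia, and neither passed. The share of all genes with either of these orders was not counted, and the difference between the classes was not tested. Of 20748 genes tested in excitatory neurons, 262 (1.26%) were called, and 0 of the 9 were among them. P2ry12 passed there with DESeq2, which called 9.58% of all genes, and with the replicate block, which called 4.45%. P2ry12, P2ry13 and P2ry14, the gene of a UDP-sugar receptor, lie inside Med12l, a gene on the opposite strand whose product belongs to the Mediator complex. Med12l had 243 and 248 CPM in WT, compared with 174 and 165 CPM in KI excitatory neurons. P2ry14 had WT levels of 245 and 263 CPM and KI levels of 143 and 173 CPM. Both genes also missed the threshold, with log2 fold changes of -0.47 and -0.62 and adjusted p of 0.0823 and 0.0571 by edgeR. The strand setting of the counting was not given in the sources used here, so reads of P2ry12 and of Med12l cannot be told apart with certainty. In core microglia, Med12l had 297 and 385 CPM (WT) against 393 and 239 CPM (KI), and P2ry14 only 13.7 to 22.4 CPM. In thinned WT excitatory neurons P2ry12 was detected in 8.05% and 10.7% of nuclei with a Med12l UMI and in 7.75% and 8.07% of those without.

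**Figure D4:**
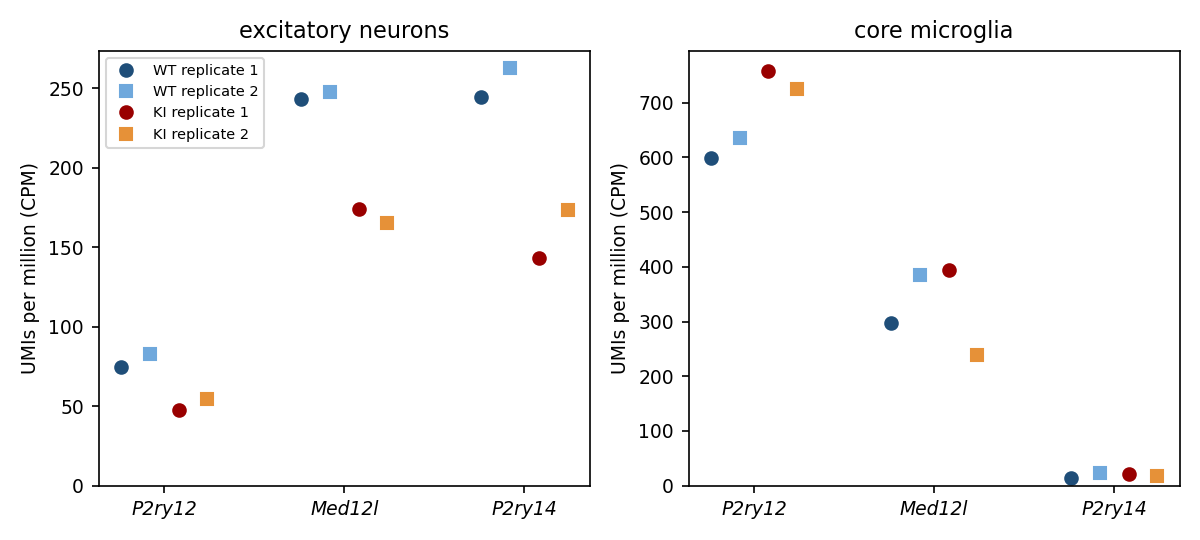
Levels of P2ry12, Med12l and P2ry14 in excitatory neurons and in core microglia, in CPM (axes starting at 0), for the 4 libraries. In excitatory neurons all 3 genes are lower in both KI libraries, whereas in core microglia P2ry12 is higher in both and P2ry14 is at 13.7 to 22.4 CPM. These differences missed the threshold in edgeR's test without the replicate block.

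Several of the other genes were also counted in glia. Sall1 in astrocytes had 32.1 and 25.9 CPM in WT, compared with 24.5 and 34.0 CPM in KI, 13.8% of the core level in WT. In oligodendrocytes it had WT levels of 21.9 and 24.5 CPM and KI levels of 10.3 and 12.96 CPM, and the log2 fold change was -0.97 ± 0.25 (SE; edgeR adjusted p = 0.148). Cx3cr1 in oligodendrocytes had 28.04 and 28.9 CPM (WT) against 44.3 and 30.6 CPM (KI), so KI replicate 2 was close to WT. Its log2 fold change there was 0.49 ± 0.24 (SE; edgeR adjusted p = 0.376). Csf1r had 18.1 to 34.8 CPM in this class. The classes with under 200 nuclei in every library (Cajal-Retzius cells, committed OPC, endothelial cells, fibroblasts and mural cells) had too few UMIs of any of the 9 genes to pass the filter. Outside the gate, 0 of the 9 genes were called in any class. The share of all genes called was 0.0124% in inhibitory neurons, 0.227% in astrocytes, 0.375% in oligodendrocytes, 0.622% in OPC and 0.69% in mural cells, and 0% in the other 4 small classes.

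**Figure D5:**
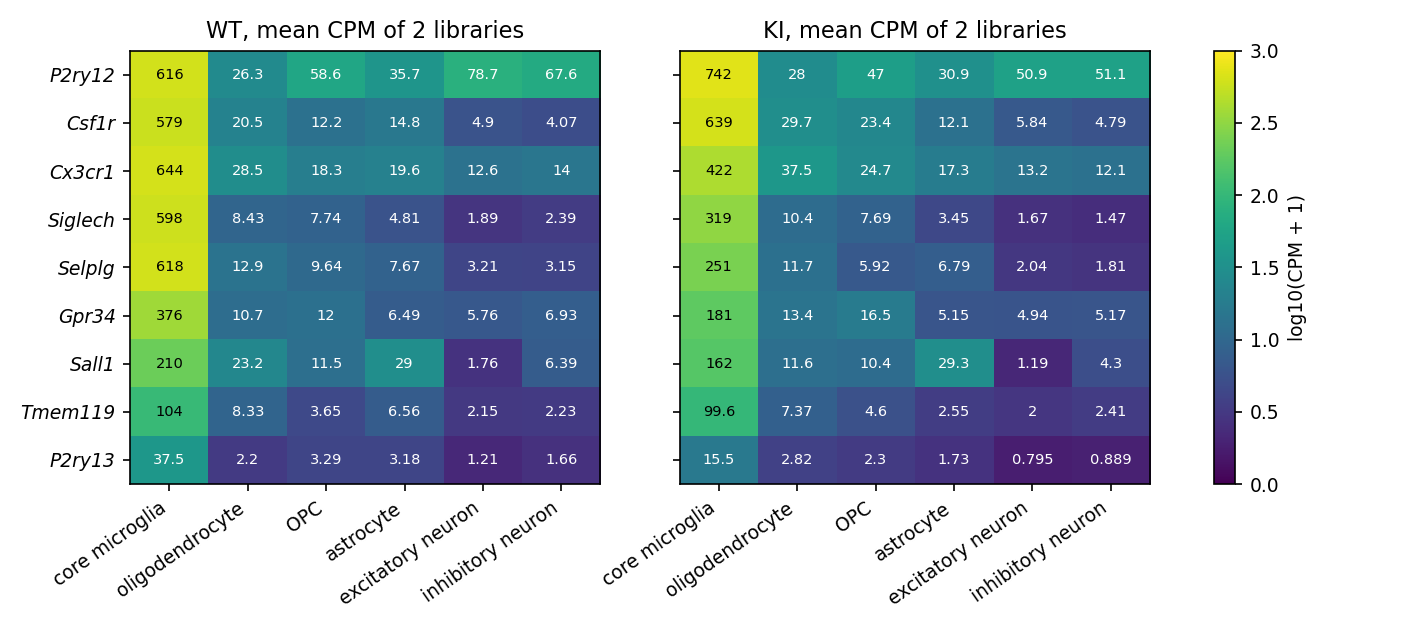
Mean level of each homeostatic gene in CPM (numbers, coloured by log10(CPM + 1)) in core microglia and in 5 other classes, separately for the 2 WT and the 2 KI libraries. In WT excitatory neurons the level of P2ry12 is 12.8% of its own level in core microglia, and those of Siglech and Selplg are 0.317% and 0.519% of theirs.

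Levels over all nuclei take in both the number of microglia and the RNA in each. Selplg had 10.8 and 11.1 CPM in WT, compared with 2.77 and 8.95 CPM in KI, and Siglech WT levels of 9.58 and 8.57 CPM and KI levels of 4.02 and 9.24 CPM. P2ry12 had 76.3 and 85.8 CPM (WT) against 55.5 and 62.2 CPM (KI), and its log2 fold change was -0.41 ± 0.10 (SE; edgeR adjusted p = 0.102). Csf1r had 13.5 and 12.2 CPM in WT, compared with 15.5 and 15.3 CPM in KI, and its log2 fold change was 0.31 ± 0.12 (SE; edgeR adjusted p = 0.199). Of 21925 genes tested, 169 (0.771%) were called, and 0 of the 9 were among them. Nuclei past the gate made up 4.07% (exact 95% interval 3.77 to 4.39) and 4.05% (3.72 to 4.40) of all WT nuclei, and 5.04% (4.66 to 5.43) and 4.65% (4.30 to 5.02) of all KI nuclei. The log2 ratio of this share was 0.25 ± 0.15 (SE; edgeR adjusted p = 0.381) on numbers of nuclei, and the exact permutation test gave p = 0.333. Core microglia made up 1.32% and 1.46% of nuclei in WT and 1.92% and 0.654% in KI. KI replicate 1 had the lowest Selplg and Siglech over all nuclei, and its shares of gated and of core nuclei were above those of either WT library. The part of the number of microglia in these levels was not tested.

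Companion genes of the homeostatic state were read from a list of 20, all of which were tested in core microglia. Of these, 0 passed in either direction, 9 had a log2 fold change below 0 and 11 above, and the median was 0.04. At an unadjusted p below 0.05, 4 were lower and 3 higher in KI, beside 5.28% of all genes tested that were lower and 10.4% that passed in either direction. Fcrls, the gene of an Fc receptor-like protein of microglia, had WT levels of 185 and 273 CPM and KI levels of 47.8 and 124 CPM, with an adjusted p of 0.0838 by edgeR. Crybb1, a crystallin gene expressed in microglia, had 109 and 73.7 CPM (WT) against 23.9 and 61.9 CPM (KI). Ltc4s, the gene of leukotriene C4 synthase, was higher, with WT levels of 106 and 205 CPM and KI levels of 455 and 221 CPM. Mertk, the gene of a phagocytic receptor, had 1486 and 1571 CPM in WT, compared with 1417 and 1549 CPM in KI.

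Ligands and regulators of the set formed a second list of 18 genes, of which 13 were tested in core microglia and 0 passed. Nrros, needed to activate TGF-β on microglia, had WT levels of 167 and 167 CPM and KI levels of 50.5 and 106 CPM. The growth factor gene Tgfb1 had 123 and 112 CPM (WT) against 63.8 and 61.9 CPM (KI), and the integrin gene Itgav had 167 and 183 CPM in WT, compared with 274 and 292 CPM in KI. Ski, a repressor of TGF-β signalling, had WT levels of 267 and 292 CPM and KI levels of 580 and 310 CPM. Their adjusted p were 0.136 for Nrros, 0.329 for Tgfb1, 0.331 for Itgav and 0.311 for Ski by edgeR. The myeloid factor gene Spi1, which encodes PU.1, had 154 and 170 CPM (WT) against 183 and 159 CPM (KI).

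Genes of disease-associated and inflammatory microglia were mostly sparse. Of the 19 disease-associated genes in the tables, 10 were tested, 0 passed and the median log2 fold change was 0.25. Apoe, the apolipoprotein E gene, had 482 and 446 CPM in WT, compared with 734 and 770 CPM in KI, with an adjusted p of 0.239 by edgeR. Trem2, the gene of a lipid-sensing receptor, had WT levels of 106 and 164 CPM and KI levels of 85.1 and 79.6 CPM. Ctsd, a cathepsin gene, had 304 and 388 CPM (WT) against 534 and 389 CPM (KI), and Ank, a phosphate transporter gene, had 137 and 138 CPM in WT, compared with 90.4 and 133 CPM in KI. Of the 20 inflammatory genes, 4 were tested and 0 passed. Nfkbia, an inhibitor of NF-κB that is itself induced by it, had WT levels of 23.9 and 28.9 CPM and KI levels of 136 and 53.1 CPM, with a log2 fold change of 2.05 and an adjusted p of 0.0756 by edgeR. Cd86 had 215 and 231 CPM (WT) against 335 and 274 CPM (KI), Tlr4 had 68.3 and 57.7 CPM in WT, compared with 37.2 and 61.9 CPM in KI, and Cd68 had WT levels of 23.9 and 35.3 CPM and KI levels of 53.2 and 17.7 CPM. The cytokine genes Il1b and Tnf had at most 7.97 CPM in any library.

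Genes whose level over cell classes was most like that of the set were sought over 44 sums, 11 classes by 4 libraries. The highest Pearson correlation of log2(CPM + 1) with the summed set was 0.94 for Gm42601, followed by Gm47754 (0.93), Il6 (0.93), Il1a (0.93), Gm32591 (0.93), Gm15232 (0.92), Gm30329 (0.92), Gm10521 (0.92), 6030468B19Rik (0.92) and Gm46224 (0.92). Several of these genes were near the floor, with 1 to 5 UMIs of Il6 and 2 to 10 UMIs of Il1a per library in core microglia, so few UMIs set their rank. Sums of the same library share free RNA and depth, so these values are a description. For single genes the most alike were Lrmp for P2ry12 (0.84), Liph for P2ry13 (0.88), Spi1 for Cx3cr1 (0.78), Slfn8 for Tmem119 (0.76), Tgfbr1 for Csf1r (0.82), Dennd1c for Siglech (0.81), Slc8b1 for Sall1 (0.81), Pik3r5 for Gpr34 (0.76) and Tbxas1 for Selplg (0.80). Tbxas1, the thromboxane synthase gene, was like Selplg lower in both KI libraries of core microglia, with 431 and 417 CPM (WT) against 247 and 319 CPM (KI).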

How the data were processed

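Single-nucleus RNA of the hippocampus of 2 WT and 2 KI mice was counted with the 10x 3′ assay. The authors deposited filtered matrices of raw UMI counts made with Cell Ranger 7.0.1 (per the file headers), and the submitters' processing notes name mm10. The annotation, intron and strand settings are not given in the sources used here. No doublet caller was run. All libraries carry the same batch label, and p-values measure the spread between single mice.

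The 9 genes, the gene lists and the tests were chosen with earlier results of these data known. Nuclei had at least 500 genes. Microglia had a UMI of at least 2 of Inpp5d, Dock8, Apbb1ip and Ly86. Each nucleus was scored as the best mixture of up to 2 class profiles, made without the 9 genes, in steps of 0.1. Core microglia had a microglial share of at least 0.7, a rule set after values had been seen, where the design had planned to use markers only. Classes were named from marker lists.

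UMIs were summed per library and class, and KI was set against WT with edgeR 4.0.16 (quasi-likelihood test, TMM, low-count filter, Benjamini-Hochberg adjustment over all genes tested, threshold 0.05). The code was tested on simulated data. CPM is UMIs per 1000000 UMIs of the same sum and is not per length, so levels of different genes cannot be ranked; classes were compared by the share of each gene's own core level. Detection used nuclei thinned to 1000 UMIs, exact 95% intervals and a floor of 3 counts. Positions are from GRCm38 (GENCODE), found for 32235 of 32285 gene IDs. Genes named in the text are the 9 genes, the 4 of each list with the smallest p (1 of which is not reported here), and genes that share a locus or resemble the 9 in pattern. Mertk, Spi1, Il1b and Tnf were named after their values had been seen. Alternatives were DESeq2 1.42.0, other scalings, filters, gates and thinning, a replicate block and leaving out each library. Same-numbered samples had no consistent shared deviation (correlation -0.08 in core microglia, -0.09 in the gate and 0.06 over all nuclei), and the labels state no pairing. The treatment label of KI replicate 2 reads R88C, and it was kept in KI by its genotype label.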

Additional observations from a re-analysis of the deposited data

How the results depend on the processing

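Of 362 log2 fold changes of single genes under alternatives in the gate, core microglia and all nuclei, where 0 passed at first, 314 kept direction and side of the threshold, 36 passed it and 12 changed sign, none to more than 0.36 in size; the causes were not tested. Tmem119 changed sign in core microglia with at least 3 gate genes (0.36) and after thinning (0.028), and over all nuclei after thinning (0.061). Leaving out 1 library gave ranges that cross 0 for P2ry12 (-0.46 to 0.30) and Csf1r (-0.62 to 0.35) in the gate, for Tmem119 in core microglia (-0.15 to 0.022), and over all nuclei for Cx3cr1 (-0.11 to 0.029), Tmem119 (-0.21 to 0.047) and Siglech (-1.11 to 0.043). In the gate, 0 genes were called by edgeR, but 2 with DESeq2 size factors, 64 with DESeq2, 5 at 1000 genes, 2 with at least 3 gate genes, 1 without border macrophage or lymphocyte markers, 19 without a filter and 2 to 3746 without 1 library. Of the 9 genes there, DESeq2 called 2, and leaving out 1 library called 0 to 8, the 8 without KI replicate 1 (13.8% of all genes). In core microglia 4 genes were called, but 1 with DESeq2, 1 at 1000 genes, 46 with at least 3 gate genes, 66 and 18 at shares of 0.5 and 0.9 (added after the data were seen), 85 without a filter, 23 after thinning and 5 to 333 without 1 library. Of the 9, these called 3 with at least 3 gate genes, 1 at either share, 3 without a filter, 2 after thinning and 0 to 4 without 1 library, the 4 without KI replicate 2 (4.36% of all genes). Over all nuclei 169 genes were called, but 1879 with DESeq2, 670 without a filter, 1 after thinning and 130 to 7460 without 1 library; of the 9, DESeq2 called 1 (P2ry12; 9.7% of all genes) and leaving out 1 library 0 to 4, the 4 without KI replicate 2 (33.2%). In other classes, DESeq2 called 1 (P2ry12 in excitatory neurons; 9.58% of all genes there), no filter 1 (Sall1 in oligodendrocytes; 3.44%) and leaving out 1 library 0 to 4, the 4 without KI replicate 2 being in oligodendrocytes (21.4%) and inhibitory neurons (22.5%). With the replicate block, 18 genes (0.127%) were called in the gate, 14 (0.21%) in core microglia and 1954 (8.91%) over all nuclei. Of the 9 genes these included 0, 1 (Selplg) and 1 (P2ry12), with 1 in other classes (P2ry12 in excitatory neurons, where 4.45% of all genes were called). The log2 ratio of the gated share was 0.25 with the block, and the samples share only a number. The median share of nuclei over the 9 genes, taken in each library and so from different genes, was lower in KI by a difference of -15.2 points in the gate, -17.9 without thinning, -5.80 at 500 UMIs, -20.8 in core microglia and -17.0 to -13.4 without 1 library, whereas the differences of single genes had a median of -3.26 points in the gate and -3.91 in core microglia. Taking Inpp5d out of the gate gene UMIs (added after the data were seen) turned the direction of none of the 9 genes per gate gene UMI in the gate and moved Csf1r there from 0.13 to 0.36 (log2), but in core microglia Tmem119 turned from 2.31 and 2.51 (WT) against 2.13 and 2.61 (KI) to 3.72 and 4.09 against 4.35 and 4.21. The 89 core nuclei of KI replicate 2 limit the precision, and P2ry13 was too sparse to test in core microglia.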

Other observations

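Outside the homeostatic genes, 4 genes passed in core microglia, 3 higher and 1 lower in KI. Apod differed by 2.79 ± 0.38 (SE) on the log2 scale (adjusted p = 0.00495 by edgeR). Ptgds had 328 and 292 CPM in WT, compared with 1170 and 734 CPM in KI (adjusted p 0.00884 by edgeR). Tent5a, the gene of a poly(A) polymerase, had WT levels of 17.1 and 19.2 CPM and KI levels of 125 and 79.6 CPM (adjusted p 0.0198 by edgeR). Nhs, a regulator of the actin cytoskeleton, had 219 and 269 CPM (WT) against 21.3 and 88.5 CPM (KI) (adjusted p 0.0152 by edgeR). Apod and Ptgds were also higher in gated KI nuclei, with Apod at 130 and 108 CPM in WT, compared with 1542 and 357 CPM in KI. In core microglia, Apod had 140 and 131 CPM (WT) against 1348 and 425 CPM (KI), so its levels were similar in the mixed gate. Whether the UMIs of Apod and Ptgds came from microglia or from RNA of other classes was not tested.

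Nuclei with a microglial profile that missed the gate numbered 54 and 31 in WT and 71 and 33 in KI, at median depths of 1089 and 1063 UMIs in WT and 994 and 897 UMIs in KI.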
